A study of Mus musculus with 35 samples.

Results

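The miR-17-92 cluster was measured by 7 of the 376 miRNA assays on a mouse miRNA PCR array. The members were taken by name, as every assay for mmu-miR-17, mmu-miR-18a, mmu-miR-19a, mmu-miR-19b, mmu-miR-20a or mmu-miR-92a in any arm or star form, written here without the mouse prefix. The names other than miR-19a* denote the main strand of a cluster hairpin, and miR-19a* is the other strand of the miR-19a hairpin. All 7 assays gave a Ct on all 35 arrays, so no member was lost to a filter.

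Each array held the small RNA of the liver of 1 mouse. The animals were female Big Blue transgenic mice, which carry a bacterial reporter vector used to count mutations. They were 6 months old at the injection, in the control and in the treated groups alike. Treated mice had received a single intraperitoneal dose of 120 mg/kg ENU (N-ethyl-N-nitrosourea), an alkylating mutagen, and their livers were taken after 1, 3, 7 or 15 days (5 mice each) or after 30 or 120 days (4 mice each), called post-treatment days (PTDs). The 7 control mice had received the vehicle DMSO, 3 of them with a day 1 label and 4 with a day 30 label. No control was labelled day 120, so at PTD 120 the treatment cannot be told apart from the greater age at sacrifice. The study asked how liver miRNA expression moves with time after a carcinogen, and here the question is put to 1 cluster.

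The cluster is a polycistron: a single primary transcript is cut by Drosha and Dicer into several hairpins and then into mature miRNAs, which guide Argonaute to mRNAs that pair with the seed, the bases near the 5′ end. Transcription of the locus is driven by MYC and E2F factors in dividing cells, and the cluster is best known as an oncogenic miRNA locus. Its known targets include the cyclin-dependent kinase inhibitor p21, the apoptosis protein BIM and E2F1 itself. It has paralogs, the miR-106a-363 cluster on the X chromosome and the miR-106b-25 cluster in an intron of Mcm7. The array held no measure of cell division, so the cluster is called here by its locus and not by a process.

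The mature sequences are shown because they group the members into families and because several differ by few bases. Among the RefSeq (GRCm38.p6) sequences used here, 6 of the 7 members and all 8 related assays on the array were found by name, and miR-19a* was not. In the lines below the seed, bases 2 to 8, is in capitals and the order is that of the locus.
miR-17: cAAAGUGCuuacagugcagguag
miR-18a: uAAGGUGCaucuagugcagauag
miR-19a: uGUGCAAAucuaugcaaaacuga
miR-20a: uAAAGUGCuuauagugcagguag
miR-19b: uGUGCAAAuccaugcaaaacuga
miR-92a: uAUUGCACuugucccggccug
miR-106a: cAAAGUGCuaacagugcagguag
miR-20b: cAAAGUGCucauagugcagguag
miR-93: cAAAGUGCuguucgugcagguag

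The first 6 fell into 4 seed groups. miR-17 and miR-20a shared AAAGUGC with miR-106a, miR-20b, miR-106b and miR-93, miR-19a and miR-19b shared GUGCAAA, miR-18a alone had AAGGUGC, and miR-92a shared AUUGCAC with miR-363, miR-25, miR-92b and miR-32. Counted from the 5′ end, miR-20a differed from miR-17 by C1U and C12U, miR-19b from miR-19a by U11C, miR-106a from miR-17 by U10A, and miR-20b from miR-17 by U10C and C12U. The 6 hairpins lay within 836 bases of the plus strand at chr14:115043671-115044506, in the order Mir17, Mir18, Mir19a, Mir20a, Mir19b-1, Mir92-1. RefSeq placed the non-coding host gene Mir17hg at chr14:115044390-115046728. This interval starts at the end of Mir19b-1, so Mir17, Mir18, Mir19a and Mir20a lie outside it as annotated. The mature miR-19b and miR-92a sequences were also encoded by Mir19b-2 and Mir92-2 on the X chromosome, so those assays read both loci. The primers of the assays were not given in the sources used here, and how far they tell near-identical miRNAs apart was not tested.

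The threshold cycle (Ct) is the PCR cycle at which a well crosses a fixed fluorescence, so a lower Ct stands for more RNA. In the 7 controls the members took the order miR-19a (mean Ct 20.2 ± 0.375, SD), miR-19b (20.4 ± 0.336), miR-20a (20.9 ± 0.176), miR-17 (21.1 ± 0.171), miR-92a (21.3 ± 0.218), miR-18a (24.7 ± 0.176) and miR-19a* (32.3 ± 1.10). Among the 376 miRNAs, ordered by mean Ct in the controls, these were places 29, 34, 38, 40, 43, 82 and 308. The PCR efficiencies of the assays were not given, so the order is one of Ct and not of molecules. miR-19a led miR-19b by 0.155 to 0.459 cycles and miR-19b led miR-20a by 0.133 to 0.957 cycles, each in all 7 controls. miR-20a led miR-17 by 0.194 ± 0.125 cycles (SD), in 6 of 7 controls and in 33 of all 35 arrays, the same number as for miR-19a over miR-19b. miR-17 led miR-92a by 0.192 ± 0.196 cycles, in 6 of 7 controls and 26 of 35 arrays, so this pair did not differ beyond its spread. miR-18a followed miR-92a by 2.85 to 3.64 cycles, and in all 35 arrays it lay behind miR-92a and ahead of miR-19a*.

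Expression is given below as −ΔCt, the mean Ct of the reference RNAs snoRNA251, snoRNA202, snoRNA142 and U6 on an array minus the Ct of the miRNA. It is a log2 scale, on which 1 unit is 1 cycle, a 2-fold difference at full PCR efficiency. The arrays had been run in 3 periods, and the day of sacrifice followed them. The first period held the 3 controls labelled day 1, 4 of 5 arrays of PTD 1 and all arrays of PTDs 3, 7 and 15. The second held 2 controls labelled day 30, the other array of PTD 1 and all arrays of PTDs 30 and 120. The third held the last 2 controls. The control label could not be told apart from the run period, and it mattered for every member. All 6 main-strand members were higher in the 4 controls labelled day 30 than in the 3 labelled day 1, without overlap, by 0.67 (miR-92a) to 1.13 (miR-19a), with exact permutation p = 0.0286 for each, the smallest that 3 against 4 allows. Their Ct values differed between the same controls by −0.24 to 0.21 cycles, while the reference RNAs came on average 0.884 cycles later in the controls labelled day 30 (exact permutation p = 0.0571). Results are therefore given against all 7 controls, as in the methods of the study, and beside that against controls from the same run period.

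Against the 7 controls no member of the cluster passed the test at any PTD. Passing means an adjusted p under 0.05 over all 376 miRNAs, by limma with Benjamini-Hochberg adjustment. By this rule 0, 0.798, 7.45, 12.2, 0.532 and 0 percent of all miRNAs passed, in the order of the 6 PTDs. No member was a differentially expressed miRNA (DEM) by the thresholds of the methods either, an unadjusted p under 0.01 with a fold change above 2, where 1.33, 2.13, 9.84, 11.4, 1.6 and 1.33 percent of all miRNAs were DEMs. At an unadjusted p under 0.05, the counts of members were 2, 3 and 2 on PTDs 7, 15 and 30, and 0 on the other days. Of all miRNAs 5.05, 10.4, 24.5, 29, 10.6 and 8.78 percent were under that threshold on the 6 PTDs in order, so 2 of 7 at PTD 7 was near the share of all miRNAs. The median log2 fold change of the 7 members was −0.39 at PTD 1, its highest was 0.71 at PTD 15, and it was 0.44, 0.58, 0.68 and 0.59 on PTDs 3, 7, 30 and 120. Over all 376 miRNAs the medians were −0.37, 0.02, 0.19, 0.36, 0.54 and 0.46. The members' median lay just below that of all miRNAs at PTD 1 and above it on the later days. All 7 members had values below the control mean at PTD 1 and above it at PTDs 3, 7 and 15, and 6 of 7 at PTD 30 and 5 of 7 at PTD 120 were above it.

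**Figure D1:**
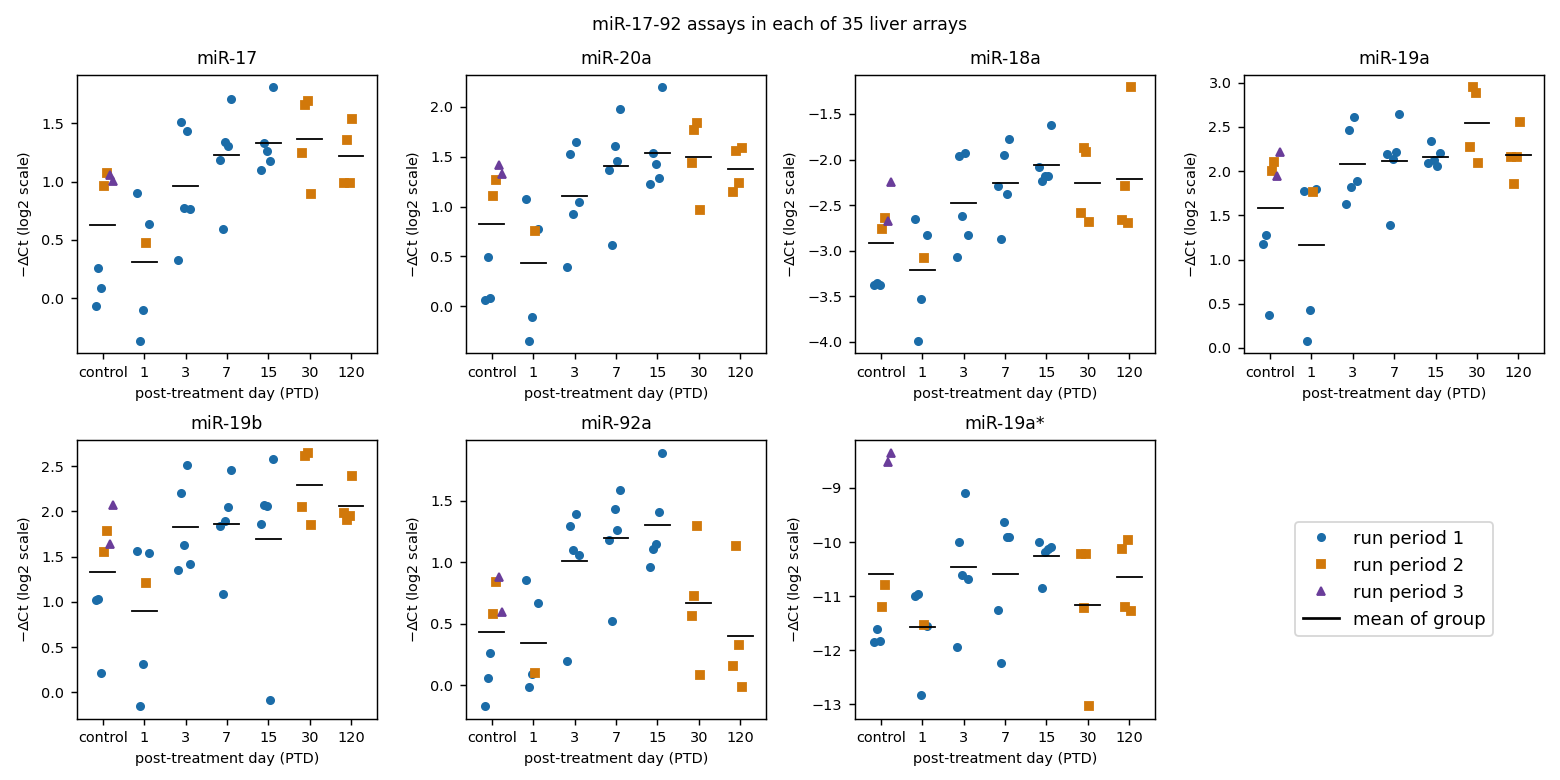
The −ΔCt of each of the 7 assays (y axis, log2 scale, a separate range in each panel) in 35 liver arrays by group (x axis, 7 controls and the ENU PTDs), with a point per array, colour and symbol for the run period and a line at the group mean. Controls of run period 1 lay below those of periods 2 and 3 in every panel, and the ENU arrays of PTD 15 lay above all 7 controls for miR-17, miR-18a and miR-92a.

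miR-17, of the AAAGUGC seed family, had −ΔCt from −0.07 to 1.08 in the 7 controls, with a median of 0.97. Its values were 0.90, −0.36, −0.10, 0.48 and 0.63 at PTD 1, and 0.33, 1.51, 0.78, 1.44 and 0.77 at PTD 3. At PTD 7 they were 1.18, 0.59, 1.34, 1.30 and 1.71, and at PTD 15 1.10, 1.33, 1.27, 1.17 and 1.81. The 5 arrays of PTD 15 all lay above the 7 controls, by a small margin against the controls labelled day 30, and the groups overlapped on the other days. The log2 fold change was 0.71 ± 0.30 (SE, 5 against 7) at PTD 15, a fold change of 1.63, with an adjusted p of 0.133 in limma. At PTD 30 the 4 values were 1.25, 1.65, 1.69 and 0.89, and at PTD 120 they were 0.98, 1.36, 0.99 and 1.54, which gave log2 fold changes of 0.74 ± 0.35 and 0.59 ± 0.34.

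miR-20a, the second member with this seed, followed miR-17 closely. In the controls it ranged from 0.06 to 1.41 with a median of 1.11. It read 1.08, −0.35, −0.11, 0.76 and 0.78 at PTD 1 and 1.23, 1.53, 1.43, 1.29 and 2.20 at PTD 15, with ranges of 0.39 to 1.65, 0.61 to 1.98, 0.97 to 1.84 and 1.15 to 1.58 on PTDs 3, 7, 30 and 120. The PTD 15 arrays overlapped the upper controls, and the log2 fold change there was 0.71 ± 0.33 (limma adjusted p = 0.176).

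miR-18a differs from that seed by 1 base and is processed from the same transcript with the help of the RNA-binding protein hnRNP A1. Its −ΔCt ranged from −3.38 to −2.25 in the controls, with a median of −2.76. It was −2.65, −3.99, −3.53, −3.09 and −2.83 at PTD 1, −2.29, −2.87, −1.95, −2.37 and −1.77 at PTD 7, and −2.08, −2.23, −2.19, −2.18 and −1.62 at PTD 15. Every PTD 15 array lay above every control, the highest control of −2.25 being close to the lowest PTD 15 array. The log2 fold change at PTD 15 was 0.86 ± 0.28, a fold change of 1.82, with an adjusted p of 0.0635 in limma and an exact permutation p of 0.00505 for this miRNA alone.

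miR-92a, the last hairpin of the locus, which is known to act in vessel growth, ranged from −0.17 to 0.88 in the controls, with a median of 0.58. It was 0.96, 1.11, 1.15, 1.40 and 1.89 at PTD 15, again above all controls. The log2 fold change of 0.87 ± 0.28 (fold change 1.82, limma adjusted p = 0.0635, exact permutation p = 0.00253) was close to that of miR-18a. In all, 3 members lay wholly above the controls at PTD 15, where 7.71 percent of all miRNAs did so. On the late days miR-92a lay mostly within the range of the controls. It was 0.56, 0.73, 1.30 and 0.08 at PTD 30 and 0.16, 1.13, 0.32 and −0.01 at PTD 120, with log2 fold changes of 0.23 ± 0.34 and −0.03 ± 0.34.

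miR-19a and miR-19b, which share the GUGCAAA seed, had their largest log2 fold changes against the 7 controls at PTD 30, but not against controls of the same run period, where miR-19a was 0.49 at PTD 30 and 1.17 at PTD 7, and miR-19b 0.62 and 1.11. miR-19a ranged from 0.38 to 2.22 in the controls and was 2.27, 2.95, 2.88 and 2.10 at PTD 30, with a log2 fold change of 0.96 ± 0.40 (limma adjusted p = 0.435). miR-19b ranged from 0.21 to 2.07 in the controls and was 2.05, 2.61, 2.65 and 1.85 at PTD 30, with a log2 fold change of 0.96 ± 0.38 (limma adjusted p = 0.435). At PTD 30, 3 of 4 arrays lay above all controls for miR-19a and 2 of 4 for miR-19b, and the groups overlapped. At PTD 15 miR-19b read 1.86, 2.07, 2.06, −0.09 and 2.58. The 1 low array, PTD 15 replicate 4, had miR-19a at 2.06 from the well of its near-identical partner. The miR-19b log2 fold change of 0.37 ± 0.46 at PTD 15 was 0.82 without that array and 0.15 without PTD 15 replicate 5.

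miR-19a* had the latest Ct of the members, 30.7 to 34.7. Its −ΔCt ranged from −11.85 to −8.34 in the controls, where the 2 controls of the third run period read −8.52 and −8.34 and the other 5 no higher than −10.79. Its log2 fold changes ran from −0.98 at PTD 1 to 0.34 at PTD 15, with standard errors of 0.64 to 0.79, so this assay bounded a change only loosely.

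With only the arrays of the same run period, PTD 7 and PTD 15 each had 6 up-regulated members, where 48.4 and 53.7 percent of all miRNAs passed and 40.7 and 47.9 percent were up-regulated. At PTD 7 the log2 fold changes of the 6 ran from 1.11 for miR-19b to 1.195 for miR-20a, with limma adjusted p values from 0.0188 to 0.0344, and miR-19a* did not pass (1.17, adjusted p = 0.110). At PTD 15 the 6 were miR-17 (1.24), miR-18a (1.31), miR-19a (1.22), miR-19a* (1.51), miR-20a (1.33) and miR-92a (1.25), with limma adjusted p values from 0.00496 to 0.00979. There miR-19b did not pass (0.94 ± 0.57, adjusted p = 0.1995), its group holding the low array named above. The median over the members was 1.15 at PTD 7 and 1.25 at PTD 15, beside 0.84 and 1.05 over all 376 miRNAs. At PTDs 1, 3, 30 and 120 no member passed within its run period, where 0, 0.266, 0 and 0 percent of all miRNAs did, and the members' medians were 0.14, 0.96, 0.35 and 0.20. At PTD 1 the means of all 7 members were above the mean of the controls of the same period, by 0.06 to 0.35, and below the mean of all 7 controls, and none of these differences passed.

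**Figure D2:**
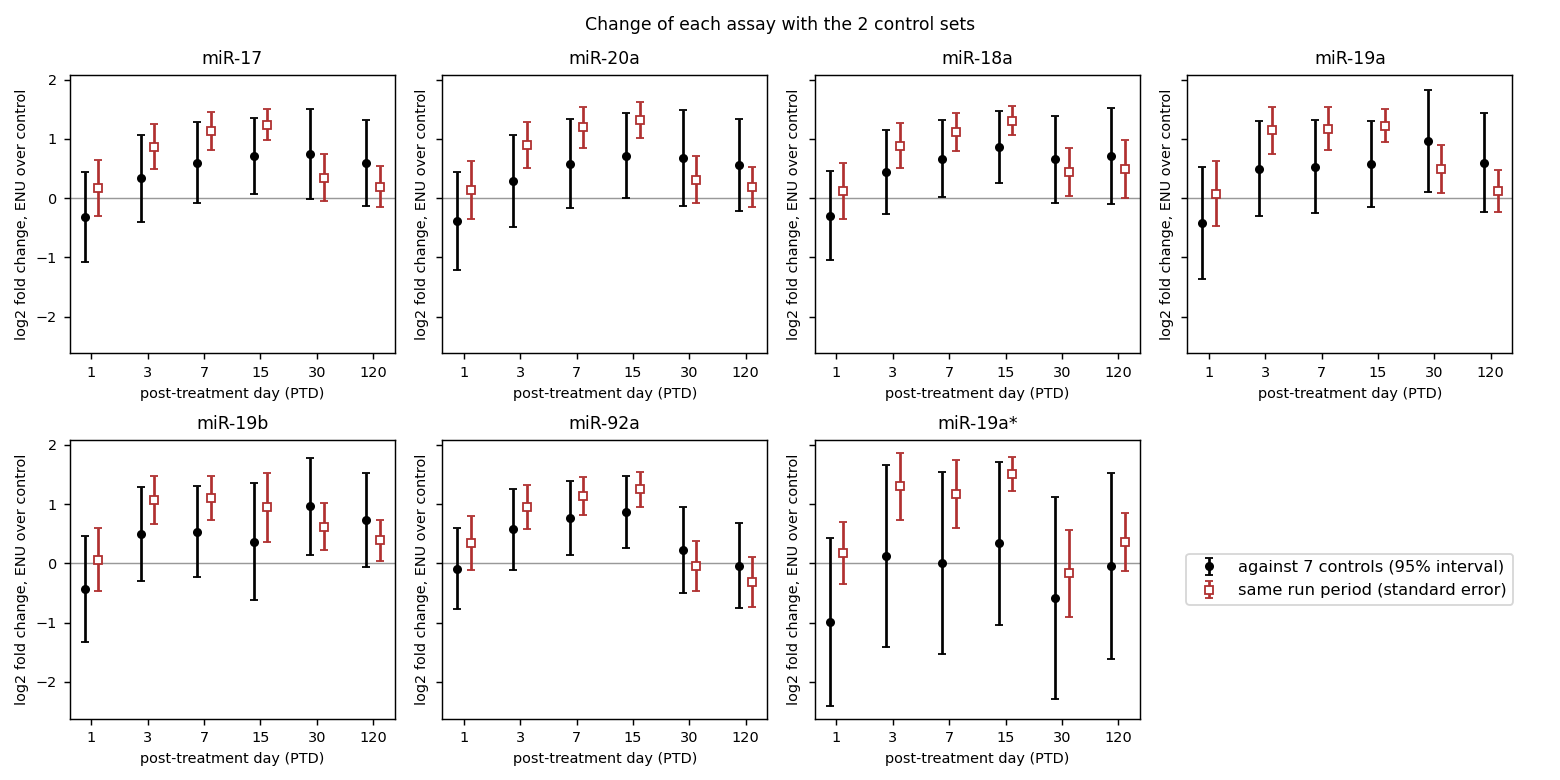
Log2 fold change of each assay (y axis) at each PTD (x axis) against all 7 controls (filled circles, bars are 95% confidence intervals) and against controls from the same run period only (open squares, bars are 1 standard error). For the main-strand members the squares lay above the circles from PTD 1 to PTD 15 and below them at PTDs 30 and 120.

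The Ct values of the member wells and of the reference RNAs are given apart here. The mean Ct of the 6 main-strand members was 21.4 ± 0.166 (SD, n = 7) in the controls, and 21.6 ± 0.299, 21.3 ± 0.247, 21.3 ± 0.0936, 21.5 ± 0.285, 20.9 ± 0.272 and 21.1 ± 0.533 in the 6 ENU groups in order of time. For the reference RNAs this mean was 21.8 ± 0.514 in the controls and 21.6, 22.1, 22.3, 22.5, 21.95 and 21.96 in those groups. At PTD 15 it was 0.774 cycles later than in all controls (exact permutation p = 0.0341) and 1.28 cycles later than in controls from the same run period (exact permutation p = 0.0179, the smallest 5 against 3 allows). The Ct of miR-17 itself differed from the controls by −0.10 cycles at PTD 7 and 0.07 cycles at PTD 15. At PTD 30, in contrast, the main-strand members other than miR-92a differed in Ct from the controls by −0.769 to −0.463 cycles, that is, came earlier, while the reference RNAs differed by 0.196 cycles. With each array centred on the median Ct of its own miRNAs in place of the reference RNAs, PTD 7 had 6 up-regulated members and PTD 15 had 4, where 35.9 and 24.2 percent of all miRNAs passed and 28.5 and 18.1 percent were up-regulated. That scaling moved the log2 fold change of every miRNA by 0.37, 0.30, 0.30, 0.03, −0.41 and −0.42 over the 6 PTDs in order, and the members' medians became −0.02, 0.73, 0.89, 0.74, 0.27 and 0.17. The 2 reverse transcription control wells of an array also differed in a way that moved with the groups: the first read later than the second in 3, 4 and 3 of the 5 arrays of PTDs 3, 7 and 15 and in the 2 controls of the third run period, and on no other array. The part of the reference RNAs and of reverse transcription in the members' values was not tested.

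**Figure D3:**
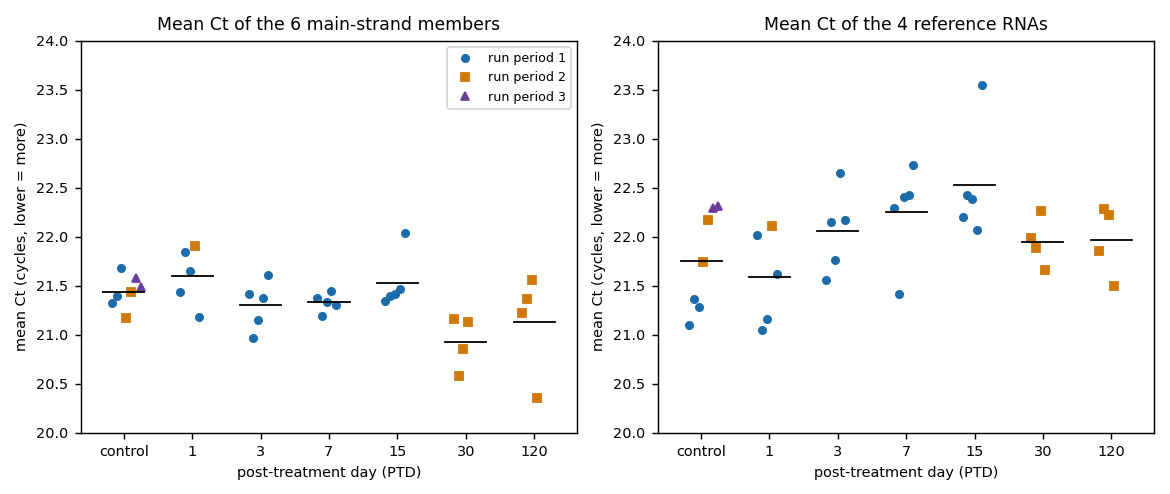
Mean Ct (y axis, cycles, lower is more RNA) of the 6 main-strand members (left) and of the 4 reference RNAs (right) on each array, by group (x axis), with a line at the group mean and symbols for the run period. The members' group means stayed between 20.9 and 21.6 cycles, and the reference RNAs' group means were latest at PTD 15, at 22.5 cycles.

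Along the time course, without the controls in the difference, 5 of 7 members were higher at PTD 15 than at PTD 1 in 1 limma fit of all groups, where 41.8 percent of all miRNAs passed and 36.4 percent were higher. miR-19b and miR-19a* did not pass. The log2 differences were 1.03 ± 0.30 for miR-17, 1.16 ± 0.32 for miR-18a, 1.00 ± 0.35 for miR-19a, 1.10 ± 0.33 for miR-20a and 0.96 ± 0.30 for miR-92a, with limma adjusted p values from 0.0105 to 0.0243. For each of these 5 miRNAs, and for miR-19a*, all 5 arrays of PTD 15 lay above all 5 of PTD 1, as they did for 21.8 percent of all miRNAs, and miR-19b overlapped through its 1 low array. The median over the members was 1.03, beside 0.81 over all 376 miRNAs. The count fell to 1 without PTD 1 replicate 2 and to 3 without PTD 15 replicate 5. The share of all miRNAs was not taken for these, so whether the members lost more calls than other miRNAs was not tested. With the reverse transcription control difference as a covariate the count fell to 0, where the share of all miRNAs that passed was 3.19 percent. Between neighbouring days no member passed in limma, and at an unadjusted p under 0.05 the counts were 5 for PTD 3 against PTD 1 and 0 for the later steps, where 25.5, 5.59, 4.26, 27.4 and 1.86 percent of all miRNAs were under it in order of the steps. PTD 3 had a median of 0.73 over PTD 1, beside 0.47 over all miRNAs, and a lowest limma adjusted p of 0.136 among the members, where 0.532 percent of all miRNAs passed. The later steps had medians of 0.19, 0.11, −0.03 and −0.15, beside 0.11, 0.18, 0.13 and −0.09 over all miRNAs, where 0, 0, 11.7 and 0 percent passed. PTDs 15 and 30 lay in different run periods, so that step could not be told apart from the run.

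The balance among the members was taken as the level of each main-strand member minus the mean of the other 5 on the same array, in which the reference RNAs cancel. The 6 balances of an array sum to 0 by construction, so a lower value of 1 member raises the others. Since the miR-19b and miR-92a assays also read copies on the X chromosome, the balance does not compare products of the chr14 transcript alone. Of 42 comparisons of a member, miR-19a* included, at a PTD with the 7 controls, 5 had an exact permutation p under 0.05, not adjusted. miR-92a stood out late. It lay between −0.28 and 0.79 relative to the others in the controls, and at −0.32, −0.70, −0.13 and −0.54 at PTD 30 and −0.57, 0.26, −0.40 and −1.39 at PTD 120. The differences from the controls were −0.57 at PTD 30 (exact permutation p = 0.00909) and −0.67 at PTD 120 (p = 0.0424). At both days 3 of 4 arrays lay below all 7 controls. With 1 array left out at a time, the PTD 30 difference ran from −0.67 to −0.46, with p under 0.05 in 10 of 11 cases. The PTD 120 difference ran from −0.93 without PTD 120 replicate 2 to −0.38 without PTD 120 replicate 4, with p under 0.05 in 2 of 11 cases. Within the run period, against 2 controls, the differences were −0.49 (exact permutation p = 0.133) and −0.59 (p = 0.333), where the smallest p possible is 0.0667.

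At PTD 30, where a low miR-92a lifts the balance of the other members, the miR-19 pair had higher values. miR-19a relative to the others was 1.73, 1.97, 1.77 and 1.87, above all controls, whose highest was 1.72, and the difference was 0.31 (exact permutation p = 0.0333), but 0.16 against the 2 controls of the same period (exact permutation p = 0.133). miR-19b was 1.46, 1.56, 1.49 and 1.58 against 0.73 to 1.49 in the controls, again a difference of 0.31 (p = 0.0364), and 0.31 against the 2 controls of the same period (p = 0.0667, the smallest possible). The other difference with a p under 0.05 was miR-20a at PTD 3, at −0.18 (exact permutation p = 0.0429), and −0.0893 against the 3 controls of the same period (p = 0.357). With 1 array left out at a time, p stayed under 0.05 in 6 of 11 cases for miR-19a, 3 of 11 for miR-19b and 3 of 12 for miR-20a. miR-17 and miR-18a relative to the other members had no exact permutation p under 0.05 at any PTD.

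**Figure D4:**
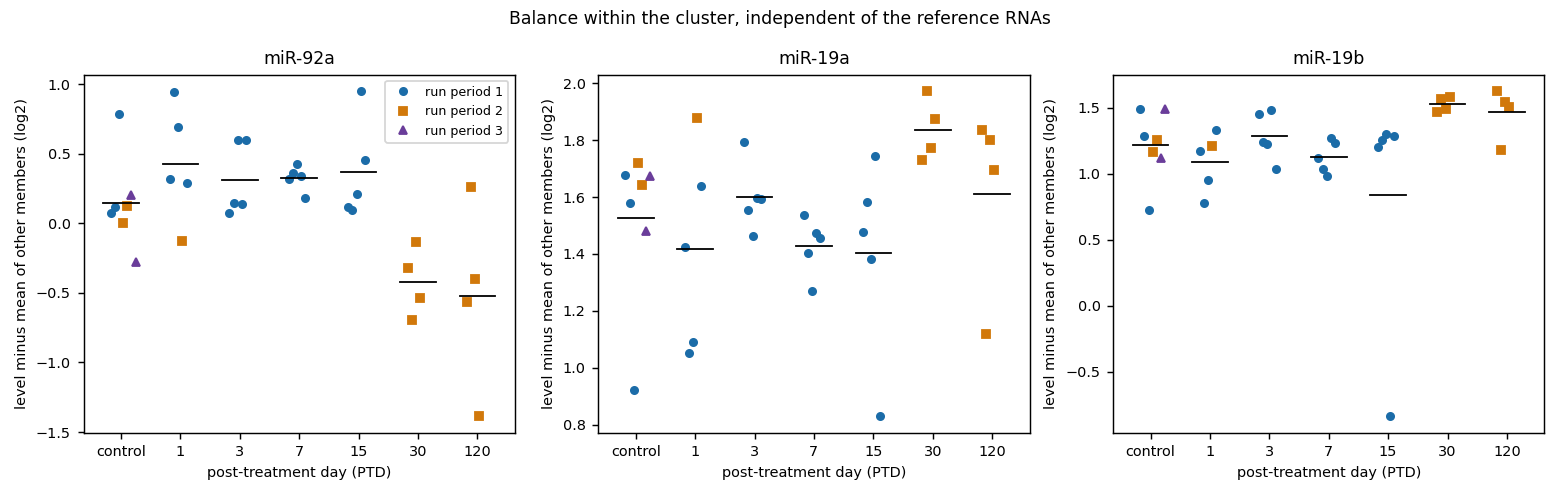
Level of miR-92a, miR-19a and miR-19b minus the mean of the other main-strand members on the same array (y axis, log2 scale, a separate range in each panel) by group (x axis), with a line at the group mean. miR-92a lay lowest at PTDs 30 and 120, miR-19a lay above all controls at PTD 30, and the lone miR-19b point at −0.84 is PTD 15 replicate 4.

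The correlations of the members across the 35 arrays are described here without a test, since the wells of an array share its RNA, reverse transcription and reference RNAs. Pearson's r of −ΔCt was 0.988 between miR-17 and miR-20a, and 0.983 after the group means were taken off. Their Ct gap ranged from −0.389 to 0.009 cycles. miR-19a and miR-19b, which differ by 1 base, had r = 0.868, with 1 array, PTD 15 replicate 4, at a gap of 2.15 cycles against a mean of 0.275. Over the 35 arrays miR-92a was the loosest of the main-strand members, with r = 0.733 to miR-17, 0.551 to miR-19a and 0.462 to miR-19b. With only the group means taken off, these were 0.808, 0.552 and 0.504, while miR-19b had 0.789 to miR-17. With array median normalization and group means taken off, miR-92a had 0.565, 0.193 and 0.172 to miR-17, miR-19a and miR-19b, and r between miR-17 and miR-20a was 0.943. The median miRNA then had 0.247 to the mean of the cluster, which is another measure than an r between single members. miR-19a* had r between 0.428 and 0.597 to the other members taken singly. The median miRNA had an r of 0.535 to the mean of the cluster, again not the same measure.

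The miRNAs most like the mean of the 6 main-strand members over the 35 arrays were miR-24 (r = 0.955), miR-106a (0.952), miR-20b (0.950), miR-93 (0.943) and miR-30e (0.942), of 369 outside the cluster. Of these, miR-106a, miR-20b and miR-93 carry the seed of miR-17, and their sequences are shown above beside it. With group means taken off, the 5 highest were miR-140 (0.963), miR-24 (0.957), miR-27a (0.955), miR-106a (0.951) and miR-93 (0.946), against a median of 0.521.

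Among the related assays, against the 7 controls, 2 of 8 relatives were up-regulated at PTD 15, where 7.71 percent of all miRNAs were, and none passed on another day. They were miR-106b (−1.08 ± 0.437 in the controls, 0.01 ± 0.20 at PTD 15, log2 fold change 1.09 ± 0.27, limma adjusted p = 0.0229) and miR-93 (−0.68 ± 0.53 and 0.36 ± 0.15, 1.04 ± 0.29, adjusted p = 0.0396), both from the miR-106b-25 cluster. Their neighbour miR-25 did not pass (0.66 ± 0.40, adjusted p = 0.286). From the X-linked cluster, miR-106a (0.70 ± 0.27), miR-20b (0.72 ± 0.36) and miR-363 (0.58 ± 0.41) did not pass at PTD 15, nor did miR-32 (1.05 ± 0.34, adjusted p = 0.0635) and miR-92b (0.04 ± 0.37), which share the miR-92a seed. The median over the 8 relatives at PTD 15 was 0.71, the same as over the 7 members, and whether the relatives differ from the members was not tested. By the DEM thresholds 3 of 8 relatives were DEMs with a higher level at PTD 15, as were 6.65 percent of all miRNAs, namely miR-106b, miR-93 and miR-32.

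The arrays held the markers of liver tissue, and miR-122, the abundant hepatocyte miRNA, had a mean Ct of 14.2 in the controls. It read 18.9 on PTD 15 replicate 1, against 14.5 to 14.9 on the other 4 arrays of that day and 13.4 to 15.2 on the 30 arrays of the other groups, while miR-192 there was at 17.5 against 17.3 to 17.9. Without that array, a setting chosen after seeing the data, 6 members passed at PTD 15 within the run period, where 48.9 percent of all miRNAs did, and 0 passed against all 7 controls. Whole liver was measured, so a change in the number of cells that hold a miRNA cannot be told apart from a change per cell. Of 15 marker miRNAs on the array, 1 passed on 1 day, when 12.2 percent of all miRNAs passed: miR-144, an erythroid miRNA, was up-regulated at PTD 15 (log2 fold change 1.52 ± 0.35, limma adjusted p = 0.0162), beside miR-451 from the same locus at 1.04 (adjusted p = 0.0635). The log2 of the summed level of both ranged from 2.09 to 3.43 in the controls and from 2.95 to 4.18 at PTD 15. The 4 hepatocyte markers ranged from 7.12 to 8.80 and from 6.32 to 9.15, the 6 immune markers from 0.56 to 2.46 and from 1.17 to 2.23, and the 3 endothelial and stromal markers on the array, of 6 listed, from 3.02 to 5.35 and from 4.57 to 5.69. Against controls of the same run period, 7 of the 15 markers were up-regulated and 1 down-regulated at PTD 7, and 9 and 1 at PTD 15. Of all miRNAs 48.4 and 53.7 percent passed there, and 40.7 and 47.9 percent were up-regulated. The mean summed level was 3.44 for the endothelial and stromal markers in those 3 controls against 4.73 at PTD 7 and 4.96 at PTD 15, 7.30 for the hepatocyte markers against 8.30 and 8.03, 2.17 for the erythroid pair against 3.38 and 3.71, and 0.89 for the immune markers against 1.63 and 1.58. Every list thus had a higher mean there, as the members did, at 2.82 against 3.95 and 4.03 for the summed level of the 6 main-strand members. The hepatocyte value at PTD 15 includes replicate 1 with its late miR-122 well. Of the 6 immune markers, 0 were up-regulated and 1 down-regulated at PTD 7, and 1 and 1 at PTD 15. The part of the marker lists in the members' values was not tested.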

How the data were processed

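Small RNA of 35 livers was reverse transcribed and run on 384-well real-time PCR arrays, 1 per mouse. The authors deposited the Ct of every well, another unit than a count or an intensity, as computed with SDS 2.3 at a threshold of 0.15 over 40 cycles and not normalized. ΔCt was taken against the mean of the 4 reference RNAs, as in the study's methods. The 15 wells listed as Undetermined, none of a member, were set to missing, and all 376 miRNAs were kept. Samples were grouped by their labels; the methods split the controls by day the other way round, so a control's day is only its label. Run periods were separated by gaps of over 7 days between runs.

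Each PTD was compared with the controls on −ΔCt in limma 3.58.1 (R 4.3.3), with Benjamini-Hochberg adjustment over 376 miRNAs, 2-sided, without covariates. PTDs were compared with each other in 1 fit of 7 groups. Single values were tested by exact permutation over samples, 2-sided. The fits were tested on simulated data. Python 3.11.15, pandas 2.3.3, numpy 2.4.6 and matplotlib 3.10.9 were also used. Sequences came from RefSeq tables of GRCm38.p6. No read depth applies to Ct, and the precision is limited by the number of arrays.

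The members, relatives and marker lists were chosen with earlier results of these data known. The named miRNAs were all members, the 8 relatives, the marker miRNAs and the 5 closest to the cluster mean in each of 2 correlations. The alternatives covered the normalization, the reference RNAs, Undetermined and late wells, the control sets, the run period, the reverse transcription control, the replicate number, the model and single arrays left out. Replicate numbers did not pair the arrays: they name different mice, and for 24 numbered ENU arrays the mean correlation with the same-numbered controls ran from −0.13 to 0.52, with 4 over 0.1. No array was a near-copy of another, the smallest root mean square difference of Ct being 0.660 cycles.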

Additional observations from a re-analysis of the deposited data

Results flagged for a closer look

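Of 98 groups of values checked for a sample far from the others, 9 had one, where chance gives about 1 in 20.

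In PTD 15 replicate 4, miR-19b read −0.0854 on the −ΔCt scale against 1.86 to 2.58 in the other arrays of its group, and −0.84 relative to the other members against 1.20 to 1.30. In the same array miR-17 relative to the other members was 0.67, against 0.29 to 0.36, since the low miR-19b well enters that mean. In PTD 120 replicate 4, miR-18a relative to the other members was −2.82 against −4.03 to −3.84, and miR-19b read 2.39 against 1.90 to 1.98. In the control labelled day 1 replicate 3, miR-19a relative to the other members was 0.92 against 1.48 to 1.72. The remaining ones were miR-18a in PTD 15 replicate 5 (−1.62 against −2.23 to −2.08), miR-19a* in PTD 15 replicate 2 (−10.86 against −10.18 to −9.99) and miR-92a in PTD 3 replicate 1 (0.20 against 1.06 to 1.39).

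The ENU groups of PTD 15 and PTD 1 differed in 5 members by limma, where 41.8 percent of all miRNAs passed, with log2 differences of 1.03 for miR-17, 1.16 for miR-18a, 1.00 for miR-19a, 1.10 for miR-20a and 0.96 for miR-92a. Both groups share the 7 controls, which drop out of the difference. With the reverse transcription control difference, which moved with these groups, as a covariate, none of the 5 passed, 3.19 percent of all miRNAs did, and the median over the 7 members was 0.74 in place of 1.03.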

How the results depend on the processing

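Against all 7 controls no member passed at any PTD, and this count depended on the controls and the scaling. With only the controls labelled day 1, members with a limma adjusted p under 0.05 numbered 6, 6, 5 and 4 on PTDs 7, 15, 30 and 120, where 48.4, 53.7, 48.9 and 36.4 percent of all miRNAs passed, DEMs 5, 6, 5 and 4, where 33, 40.4, 37.5 and 27.9 percent were DEMs, and the members' medians at PTDs 1 to 120 were 0.22, 0.96, 1.15, 1.25, 1.28 and 1.16. With only the controls labelled day 30 no member passed or was a DEM, and the medians were −0.85, 0.0155, 0.13, 0.26, 0.32 and 0.11. Of all miRNAs 0.266, 1.06, 6.38, 5.59, 0.532 and 0 percent passed in that setting, in order of the PTDs. The share of DEMs was 13, 6.12, 10.1, 9.04, 1.33 and 1.6 percent. With only arrays of the same run period the counts were 6 at PTD 7 and 6 at PTD 15, where 48.4 and 53.7 percent of all miRNAs passed. DEMs were 5 and 6, where 33 and 40.4 percent of all were DEMs. The medians at PTDs 1, 3, 7 and 15 were 0.14, 0.96, 1.15 and 1.25. At PTDs 3, 7 and 15 these are the same arrays as with only the controls labelled day 1. A run period block gives the same log2 fold changes on these days, so the settings are not separate checks. With the run period as a block the counts were 6 at PTD 7 and 6 at PTD 15, DEMs 1, 6 and 6 at PTDs 3, 7 and 15, and the medians there 0.96, 1.15 and 1.25, where 52.7 and 56.6 percent of all miRNAs passed at PTDs 7 and 15 and 13.3, 38 and 42.6 percent were DEMs. With array median normalization the counts were 6 and 4 on PTDs 7 and 15, where 35.9 and 24.2 percent of all miRNAs passed. There was 1 DEM at PTD 7, where 18.1 percent of all were DEMs. The counts were 2 for PTD 3 against PTD 1 and 1 for PTD 30 against PTD 15, where 16.8 and 24.5 percent of all passed. Over all miRNAs the calls at PTD 7 were then 107 higher and 28 lower, against 6 and 22 with the reference RNAs, and at PTD 15 68 and 23 against 29 and 17. With that normalization within the run period, chosen after seeing the data, the counts were 6 and 5, where 50.3 and 29.5 percent of all passed. There was 1 DEM at PTD 15, where 22.3 percent of all were DEMs. At PTD 15, 2 members passed with 1 fit of all groups, 2 with the exact permutation test for each miRNA, 2 when only assays whose Ct averaged no more than 30 were kept, 2 by the methods' t-test after Benjamini-Hochberg adjustment, and 3, with 2 DEMs, without snoRNA251, where 17.3, 12.8, 21, 12 and 21.8 percent of all passed in that order. The share of DEMs without snoRNA251 was 16.2 percent of all. With the reverse transcription control difference as a covariate, 2 members were DEMs at PTD 30, where 3.46 percent of all were, and 0 passed for PTD 15 against PTD 1, in place of 5, where 3.19 percent of all passed in place of 41.8.

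With a replicate block, 0 members passed at every PTD and 5 for PTD 15 against PTD 1, so no count of members changed. Of all miRNAs 0, 0.798, 5.32, 5.32, 0 and 0 percent passed on the PTDs in order, and 43.6 percent for PTD 15 against PTD 1. Without 1 replicate at a time, the count at PTD 15 was 0 to 1, the 1 coming without the control labelled day 30 replicate 4, and for PTD 15 against PTD 1 it was 1 to 6. The share of all miRNAs that passed was not taken with a replicate left out.

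Log2 fold changes that changed sign were of members that had not passed. At PTD 1 with only controls labelled day 1 they were 0.22 for miR-17, 0.15 for miR-18a, 0.23 for miR-19a, 0.19 for miR-19a*, 0.14 for miR-19b, 0.22 for miR-20a and 0.29 for miR-92a. With the same run period they were 0.17, 0.12, 0.0782, 0.18, 0.0640, 0.14 and 0.35 in that order. With array median normalization, miR-17 was 0.0543, miR-18a 0.0757 and miR-92a 0.28 at PTD 1, and miR-92a −0.175 at PTD 30. Within the run period that normalization gave 0.0870 for miR-92a at PTD 1, −0.0144 at PTD 30 and 0.38 for miR-19a* at PTD 120. For miR-92a, PTD 30 was −0.0432 within the run period and with it as a block, and −0.0566 with only controls labelled day 30. PTD 1 was 0.0830 with the run period as a block, 0.0199 without snoRNA202 and 0.0684 in raw Ct. PTD 120 was 0.35 with controls labelled day 1, 0.0810 without snoRNA202, 0.0433 with the covariate and −0.28 to 0.10 without 1 replicate. With only controls labelled day 30, miR-17 was −0.0624 and miR-20a −0.17 at PTD 3, and miR-19b −0.0618 at PTD 15. In raw Ct, chosen after seeing the data, miR-17 was −0.0655, miR-19a −0.19, miR-19b −0.40, miR-20a −0.0593 and the median −0.0655 at PTD 15, and miR-20a −0.0165 at PTD 3.

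miR-19a* had no stable sign. At PTD 3 it was −0.0422 without snoRNA142, −0.75 with only controls labelled day 30, −0.23 with the covariate, −0.0553 with the replicate block, −0.17 in raw Ct and −0.22 to 0.50 without 1 replicate. At PTD 7 these were −0.0199, −0.88, −0.89, −0.37, −0.50 and −0.24 to 0.41, with −0.0528 without U6. At PTD 15 it was −0.54 with only controls labelled day 30, −0.40 with the covariate and −0.43 in raw Ct. At PTD 30 it was 0.59 with controls labelled day 1 and −0.89 to 0.0451 without 1 replicate. At PTD 120 it was 1.12 with controls labelled day 1, 0.36 within the run period and with it as a block, 0.0695 without snoRNA202, 0.40 with the covariate and −0.27 to 0.33 without 1 replicate. The causes were not tested. Undetermined wells at 40 and Ct capped at 35 changed no count of members.

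With 4 to 5 arrays against 7 in 3 run periods, and 2 to 3 controls within a period, confidence intervals of single members were 1.21 to 3.41 log2 units wide, and the run period, the control label and the day cannot be told apart for the controls.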
